A study of Mus musculus with 8 samples.

Results

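The genes followed here are 9 members of the complement system, 9 of the 23284 gene rows in the deposited counts, measured by RNA sequencing in sorted pancreatic endocrine cells of mouse embryos at day 17. They are the activation genes C2, C3, C4b and Cfb, the terminal-pathway gene C6, and the regulators Cfi, Serping1, Cd55 and Cd59a. Rows were taken by gene symbol. The list was drawn up with fold changes of the comparison below already known, in which C6 and Cd55 stood out, so the KO and Het values of the 9 genes are a description and carry no test.

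In the KO libraries both Neurod1 alleles were floxed (Neurod1floxed/floxed; replicates 8, 9, 17 and 24), and in the Het libraries a single allele was floxed and the other was wild type (Neurod1floxed/wt; replicates 6, 7, 13 and 19). Both groups carried Neurog3Cre+ and RosaTomato+ on a background given as C56BL/J, so every library, Het included, came from embryos with at least 1 floxed Neurod1 allele. Neurog3 drives Cre in endocrine precursors, the label is inherited by all their descendants, and cells were sorted by Tomato. The labels do not say whether replicates were separate embryos or pools, so a p-value below reflects only how much these libraries vary.

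Complement is a cascade of blood and tissue-fluid proteins that marks surfaces and opens pores in membranes. The C1 complex, C4 and C2 start the classical pathway, factor B (Cfb) the alternative pathway, and both cleave C3, the protein on which all pathways converge. Downstream, C5, C6, C7, C8 and C9 assemble into the membrane attack complex, in which C6 is the first to join activated C5. Cells hold the cascade back with membrane proteins such as CD55, which takes apart the enzymes that cleave C3, and CD59, which keeps C9 from inserting, while factor I (Cfi) and the C1 inhibitor (Serping1) act in solution. The liver makes most of the soluble proteins, fibroblasts and macrophages make some locally, and CD59 has been linked to insulin secretion in cultured rat beta cells.

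The libraries held between 10350040 and 16080392 counts, and a count of 1 was worth between 0.0618 and 0.101 CPM, the count over the scaled library size and the unit of level below. Neurod1 stood at 2.55, 12.9, 22.2 and 21.5 CPM in the KO libraries and at 133, 138, 141 and 210 CPM in the Het libraries, each group in the order of replicates given above, and the groups did not overlap. Endocrine genes were abundant in all 8 libraries, with 10 listed markers (Chga, Chgb, Isl1, Pax6, Nkx2-2, Insm1, Ins1, Ins2, Gcg and Sst) summing to between 18374 and 34752 CPM in KO and between 57920 and 81152 CPM in Het. Markers of acinar cells were abundant too. In KO replicate 9 the 10 listed acinar markers summed to 44623 CPM, above its endocrine sum of 22589 CPM. In every other library the acinar sum lay below the endocrine sum. KO replicate 8 stood apart. Its 11 mesenchyme markers summed to 10396 CPM, against 362 to 533 CPM in the other KO libraries and 257 to 1253 CPM in Het. Its 10 macrophage and leukocyte markers summed to 505 CPM and those of KO replicate 9 to 285 CPM, against 19.5 and 51.9 CPM in KO replicates 17 and 24 and 23.0 to 78.5 CPM in Het. In such pools, fewer cells of a type and less RNA per cell cannot be told apart.

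For C6 and Cd55 the lowest KO library lay above the highest Het library. The difference was a log2 fold change of 2.70 (SE 0.44) for C6 and 1.87 (SE 0.26) for Cd55. For the other 7 genes the groups overlapped. By edgeR's quasi-likelihood test at an adjusted p under 0.05, 2 of the 9 genes were called, both higher in KO, where 0.34% of all 14116 genes tested were called higher. Groups did not overlap, with KO above, in 2 of the 9 and in 3.55% of all genes tested. Leaving out KO replicate 8 cannot make such groups overlap, and without it the share of all genes was 6.91%. The log2 fold change was positive in 7 of the 9, with a median of 0.47, against 53.4% of all genes and a median of 0.03. Since the choice of genes used this comparison, nothing follows from these counts.

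**Figure D1:**
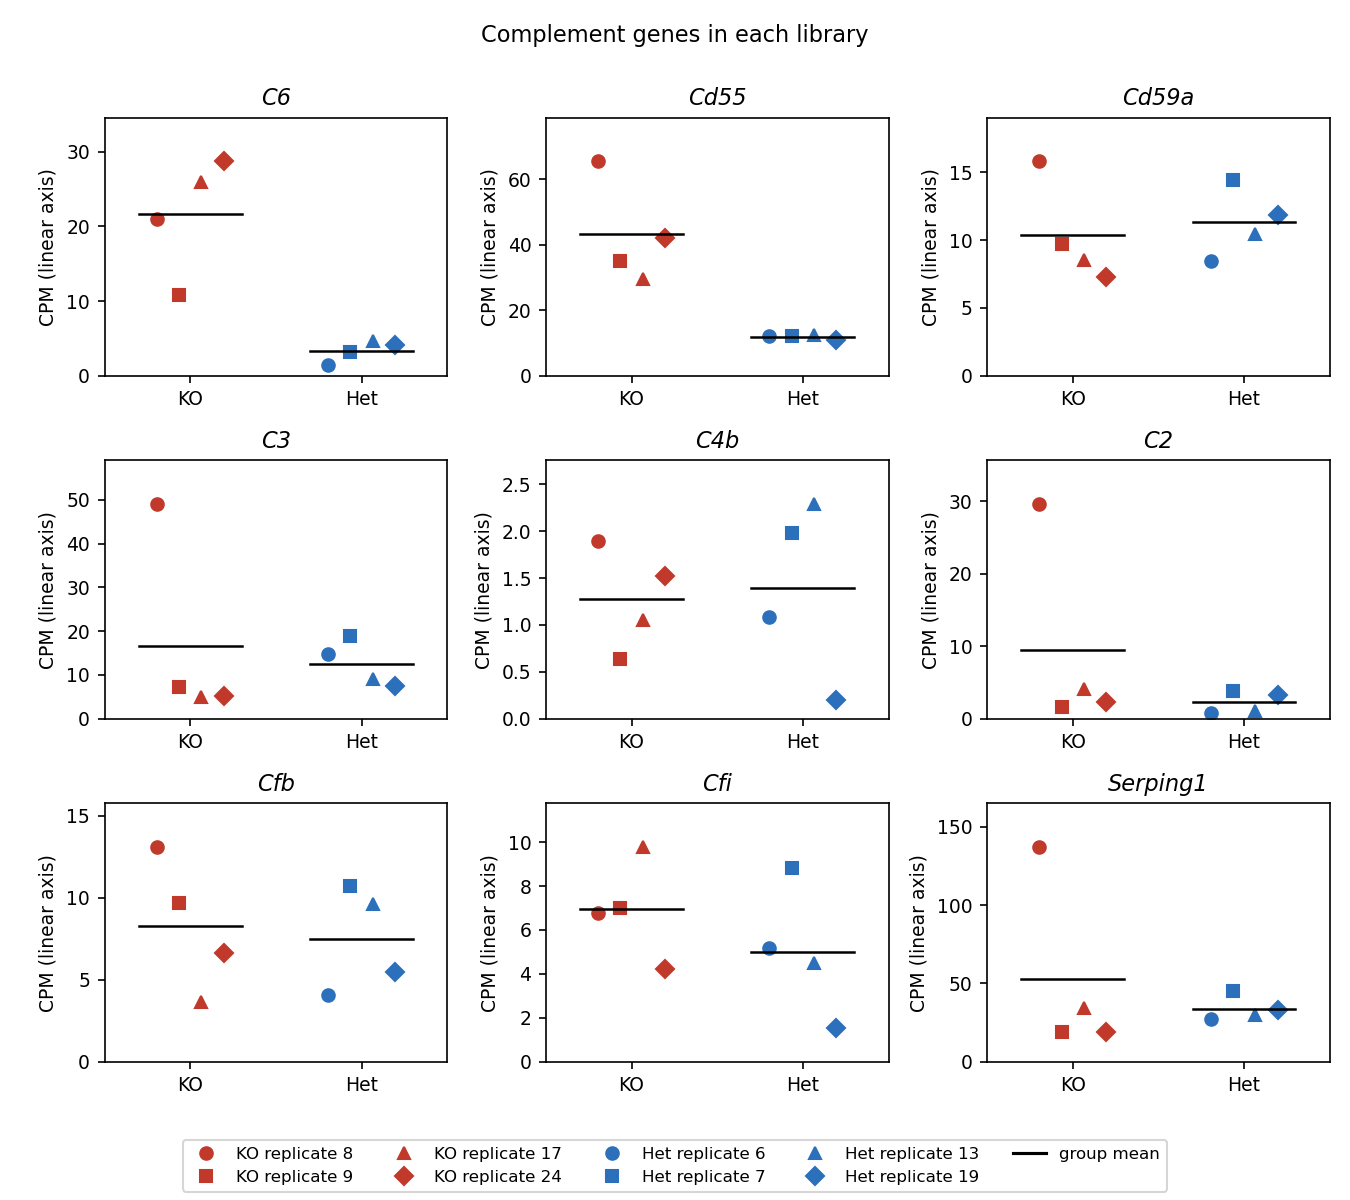
Level of each complement gene in CPM (linear axis from 0) in the KO libraries (red, left) and the Het libraries (blue, right), 1 symbol per replicate, with a bar at the group mean. C6 and Cd55 do not overlap between groups, and KO replicate 8 lies far above all other libraries for C3, C2 and Serping1.

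C6 had 21.0, 10.8, 25.9 and 28.8 CPM in the KO libraries, from 135 to 344 counts each, against 1.39, 3.15, 4.59 and 4.16 CPM in the Het libraries, from 18 to 52 counts each. The lowest KO library, replicate 9, held more than 2 times the level of the highest Het library. The means were 21.6 ± 7.94 CPM in KO and 3.32 ± 1.42 CPM in Het (SD, n = 4 each). KO replicates 17 and 24 had the highest C6 of all. With KO replicates 8 and 9 both left out the log2 fold change was 3.04 (SE 0.42). C6 was not among the genes called when KO replicate 17 (2.59, SE 0.49), KO replicate 24 (2.52, SE 0.49), Het replicate 7 (2.68, SE 0.52), Het replicate 13 (2.90, SE 0.50) or Het replicate 19 (2.82, SE 0.52) was left out.

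Cd55 had 65.7, 35.2, 29.6 and 42.1 CPM in the KO libraries, against 12.0, 12.1, 12.3 and 10.8 CPM in the Het libraries. The Het libraries were tightly grouped and the KO libraries more spread, with KO replicate 8 the highest. The means were 43.2 ± 15.9 CPM in KO and 11.8 ± 0.64 CPM in Het (SD, n = 4 each). Without KO replicate 8 the log2 fold change was 1.58 (SE 0.22), and with KO replicate 9 left out as well it was 1.60 (SE 0.25). The gene was not called when Het replicate 7 (1.88, SE 0.30) or Het replicate 13 (1.89, SE 0.30) was left out.

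The promoters of C6 and Cd55 are shown because these genes were the pair that separated KO from Het, and because Neurod1 belongs to a family of factors that bind E-boxes, CANNTG. Capitals mark each CANNTG in the RefSeq sequence of 300 bases around the gene's start, most of them before it, 5′ to 3′ on the gene's strand, in build GRCm38.p6 (C6 at chr15:4726960-4727259, plus strand; Cd55 at chr1:130462695-130462994, minus strand). Of the 9 genes, 4 had an entry.
C6: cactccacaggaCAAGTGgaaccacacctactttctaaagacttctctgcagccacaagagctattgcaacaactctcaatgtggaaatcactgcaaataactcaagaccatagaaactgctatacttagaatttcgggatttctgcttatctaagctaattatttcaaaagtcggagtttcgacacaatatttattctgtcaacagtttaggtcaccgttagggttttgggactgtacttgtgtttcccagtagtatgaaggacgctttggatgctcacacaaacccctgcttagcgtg
Cd55: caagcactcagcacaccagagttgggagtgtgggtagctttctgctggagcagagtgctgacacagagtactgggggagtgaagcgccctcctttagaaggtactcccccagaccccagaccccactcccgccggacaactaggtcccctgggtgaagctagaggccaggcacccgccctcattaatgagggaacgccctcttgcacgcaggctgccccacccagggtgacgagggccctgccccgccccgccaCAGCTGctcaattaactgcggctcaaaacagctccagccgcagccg
Each held 1 CANNTG, read on both strands, as did the entries of C3 and Cd59a. A CANNTG is common, being present in 72.3% of the 32851 promoters of this length. The one in Cd55 was CAGCTG, which 16.3% of promoters held, and the one in C6 was CAAGTG. Neither held CAGATG, read on both strands, which 17.2% of promoters held and which the C3 entry held once. CAGCTG and CAGATG are special cases of CANNTG. GC content was 41.7% for the C6 promoter and 63.3% for that of Cd55, against a mean of 53.8% over all promoters. These matches describe the letters only and show no binding.

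Among the activation genes, C3 and C2 were set apart by 1 library. C3 had 49.2 CPM in KO replicate 8 and 7.34, 4.90 and 5.12 CPM in KO replicates 9, 17 and 24, against 14.8, 18.98, 9.01 and 7.503 CPM in the Het libraries. KO replicate 8 was the highest library of all and the other KO libraries were the 3 lowest. With all libraries the log2 fold change was 0.40 (SE 0.72), and without KO replicate 8 it was −1.13 (SE 0.40), which turned the direction. Over all genes tested, KO replicates 9, 17 and 24 lay below every Het library in 7.62%. C2, the protease that pairs with C4 in the classical pathway, had 29.7 CPM in KO replicate 8 and 1.60, 4.15 and 2.34 CPM in the other KO libraries, against 0.850, 3.77, 1.06 and 3.24 CPM in Het. Its log2 fold change of 2.07 (SE 0.95) became 0.26 (SE 0.72) without KO replicate 8, with the groups interleaved.

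Cfb, the protease of the alternative pathway, had 13.1, 9.65, 3.62 and 6.65 CPM in the KO libraries, against 4.09, 10.7, 9.63 and 5.47 CPM in the Het libraries, a log2 fold change of 0.14 (SE 0.47). The groups overlapped over most of their range. C4b, which encodes C4, was the lowest of the 9 genes. It had 1.89, 0.638, 1.06 and 1.53 CPM in KO, from 8 to 26 counts, against 1.08, 1.98, 2.30 and 0.203 CPM in Het, from 2 to 32 counts (log2 fold change −0.13, SE 0.75). Its near copy C4a had 3.54 ± 0.941 CPM in KO and 4.03 ± 2.45 CPM in Het (SD, n = 4 each). In GENCODE transcripts, 16.5% of the 100-base windows of C4b, the length of the reads, occur unchanged in C4a, so how counting divided such reads bears on both genes. The same share was 0.293% for Cd59a in Cd59b, 6.86% for Cd55 in Cd55b and 0% for C2 in Cfb, its neighbour and relative. Outside the 9 genes, the share was larger for C1ra in its relative C1rb, at 34.5%.

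The soluble regulator Serping1, the C1 inhibitor gene, had 137 CPM in KO replicate 8 and 19.1, 34.5 and 19.2 CPM in the other KO libraries, against 27.0, 45.4, 29.7 and 32.7 CPM in Het. Its log2 fold change was 0.64 (SE 0.58) with all libraries and −0.48 (SE 0.27) without KO replicate 8. Cfi, whose protein cleaves activated C3 and C4, had 6.78, 7.02, 9.80 and 4.22 CPM in KO, against 5.18, 8.84, 4.50 and 1.52 CPM in Het (log2 fold change 0.47, SE 0.52; 0.47, SE 0.55 without KO replicate 8). No library stood apart for Cfi, and the groups overlapped.

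The membrane regulator Cd59a, whose protein keeps C9 from inserting, had 15.9, 9.73, 8.52 and 7.28 CPM in KO, against 8.50, 14.5, 10.4 and 11.9 CPM in Het, and the groups overlapped (log2 fold change −0.13, SE 0.33). Without KO replicate 8 the value was −0.42 (SE 0.32). Its close relative Cd59b was low, at 1.12 ± 0.312 CPM in KO and 1.81 ± 1.13 CPM in Het (SD, n = 4 each; log2 fold change −0.69, SE 0.65, edgeR adjusted p = 0.715). Cd55b, the testis form next to Cd55 on the chromosome and listed as Daf2 in the files, had 3 counts in all KO libraries together and 1 count in Het.

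**Figure D2:**
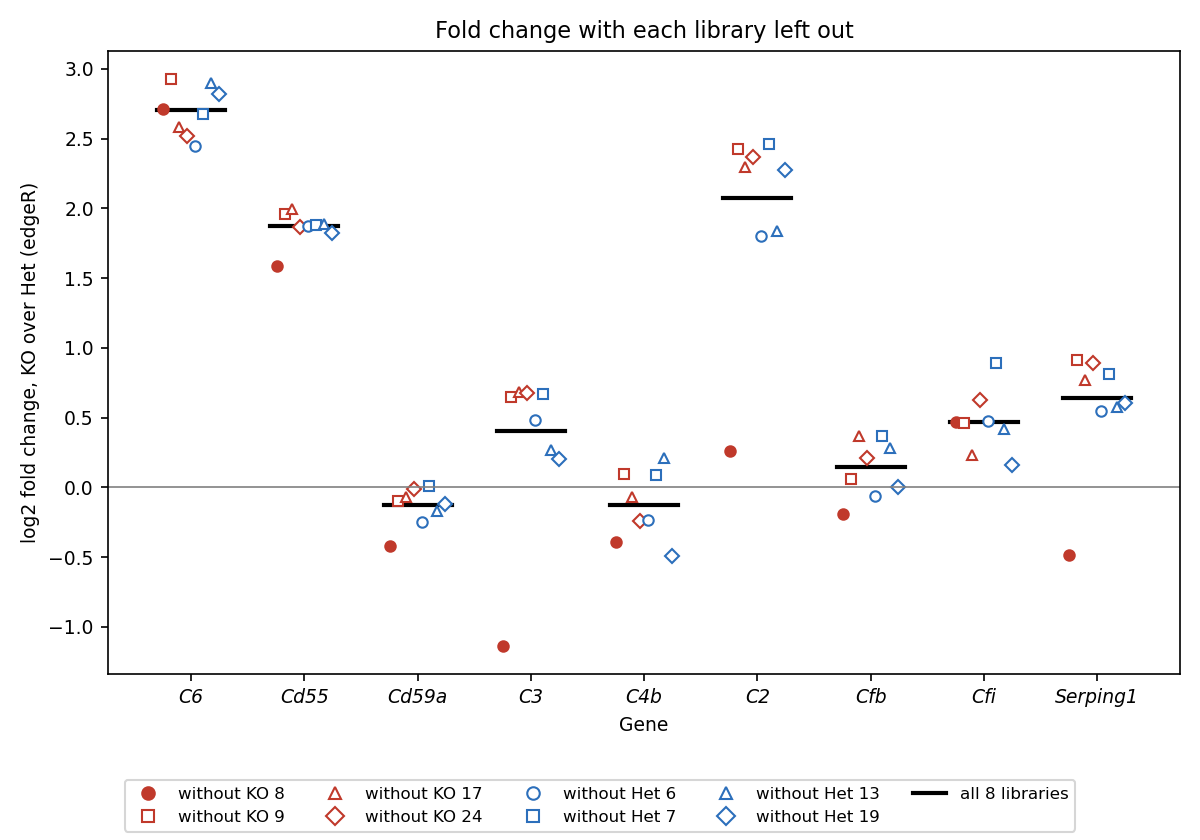
Log2 fold change of KO over Het for each complement gene with all libraries (black bar) and with each of the 8 libraries left out in turn (symbols; the filled circle is without KO replicate 8). C6 stays between 2.45 and 2.93 and Cd55 between 1.58 and 1.99, while C3, Serping1 and C2 drop to −1.13, −0.48 and 0.26 without KO replicate 8.

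Divided by the length of the longest GENCODE transcript of each gene, levels can be set side by side only roughly, as CPM per kilobase. The annotation used for counting is not known and the cDNA was amplified, so counts may not scale with that length. In KO, Serping1 led with 29.7 ± 32.3, followed by Cd55 (17.04 ± 6.27), C6 (7.52 ± 2.76), Cd59a (5.73 ± 2.12), C2 (3.57 ± 5.12), Cfi (3.35 ± 1.10), C3 (3.24 ± 4.23), Cfb (3.002 ± 1.48) and C4b (0.238 ± 0.102; SD, n = 4). In Het the order was Serping1 (19.1 ± 4.61), Cd59a (6.26 ± 1.39), Cd55 (4.65 ± 0.253), Cfb (2.72 ± 1.16), C3 (2.45 ± 1.03), Cfi (2.41 ± 1.45), C6 (1.16 ± 0.495), C2 (0.845 ± 0.565) and C4b (0.258 ± 0.175; SD, n = 4). In Het, Cfb, C3 and Cfi lay within an SD of each other, as did C6 and C2. Serping1 in Het was more than an SD above all others. In KO, C6 and Cd59a lay within an SD of each other, as did C2, Cfi, C3 and Cfb. The SDs of Serping1, C2 and C3 in KO exceeded their means, with KO replicate 8 far above the rest, so their places in the KO order rest on that library.

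The rest of the pathway was read from 39 further complement genes listed by function. All had a row, 2 (C9 and Vsig4) had no count in any library, and 20 passed the filter on low counts. None of the 20 was called by edgeR, against 1.02% of all genes tested in either direction, and 6 had an unadjusted p under 0.05 (4 higher and 2 lower in KO), against 12.2% of all genes. DESeq2 called 4 of the 39, namely C1qb, C1qc, C3ar1 and Mbl2, the first 3 higher and Mbl2 lower, where it called 3.72% of the genes it gave an adjusted p, and 1.72% as higher. limma-voom called none, and edgeR without KO replicate 17 called C1qc, where 0.0554% of all genes were called higher. Groups did not overlap for 3 of the 20 (C1qb and Susd4 with KO above, Cpn1 with KO below), against 8.03% of all genes and 4.48% with KO below. Of the 20, 13 had a positive log2 fold change, and 7 were highest in KO replicate 8, as were 22.7% of all genes tested and 6 of the 9 genes above.

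The partners of C6 in the membrane attack complex were low or had a log2 fold change below 0. C8b, a subunit of C8, had 7.65, 17.3, 15.3 and 18.8 CPM in KO, against 31.7, 16.5, 23.3 and 24.5 CPM in Het, and edgeR gave an adjusted p of 0.405 (log2 fold change −0.70, SE 0.31). C8g, which encodes the small subunit of C8, stood at −0.91 on the log2 scale (SE 0.69, edgeR adjusted p = 0.634). The other 4 genes of the terminal pathway were too low to test. C7 had 1 count in KO replicate 8 and none in the other KO libraries, against 11, 0, 8 and 0 counts in Het. Hc, the mouse C5 gene, had 2, 3, 8 and 14 counts in KO, against 15, 5, 0 and 1 in Het. C8a had 2 counts, both in KO replicate 17, and C9 had none, which allows up to 0.304 CPM in the shallowest library (3 counts, covering counting error only).

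**Figure D3:**
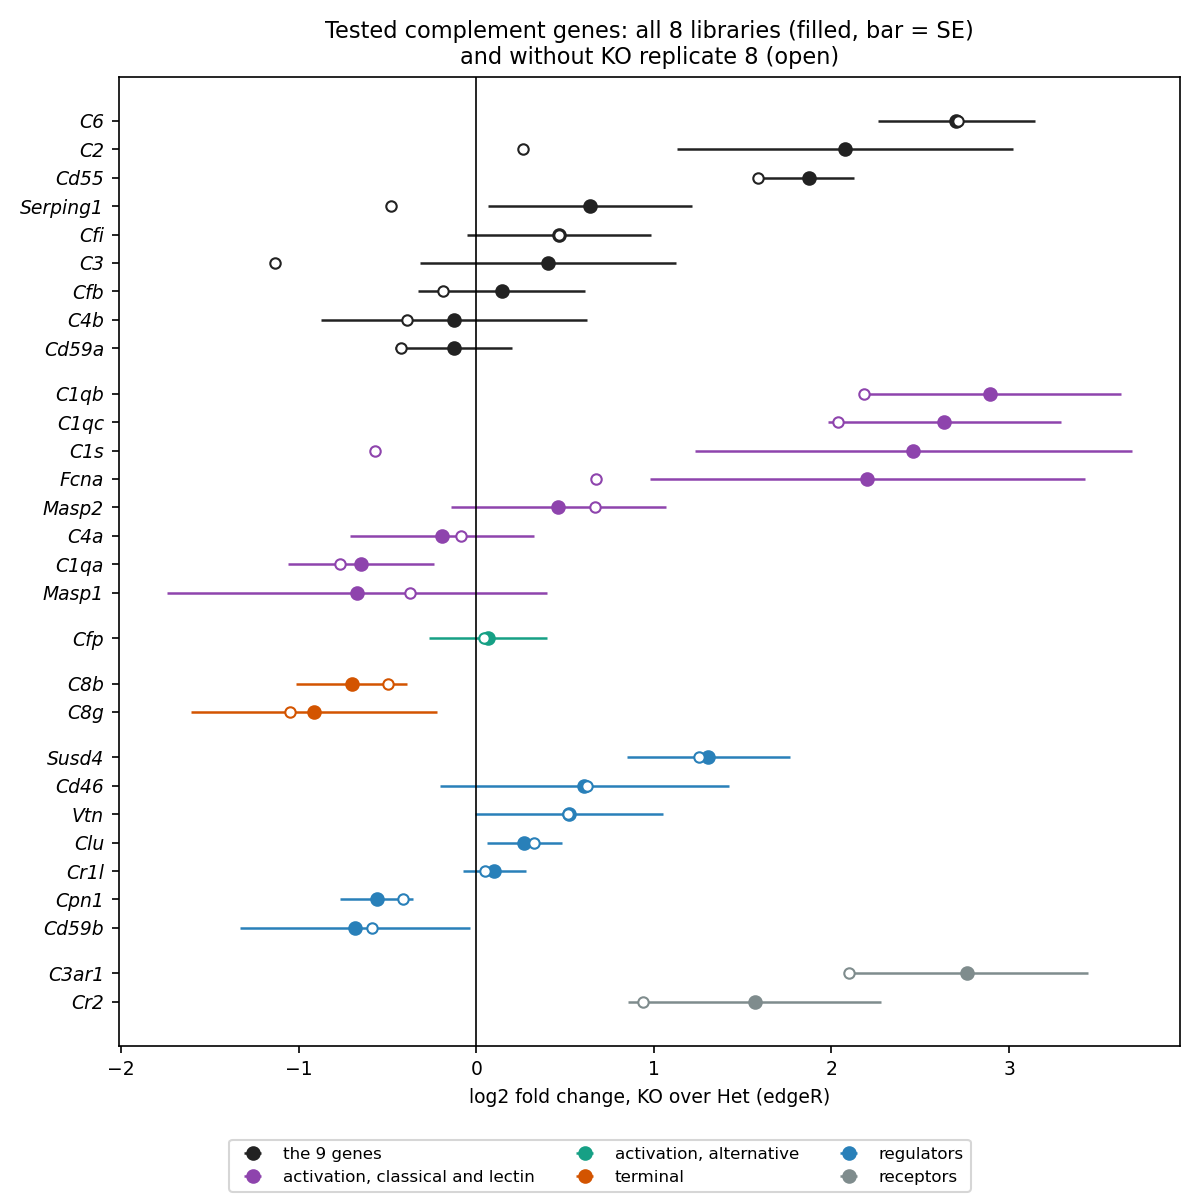
Log2 fold change of KO over Het for the tested complement genes grouped by role, with all 8 libraries (filled circles, bars give the SE) and without KO replicate 8 (open circles). Without KO replicate 8, C6 and Susd4 keep nearly the same value, Cd55 moves to 1.58 and C1s to −0.57, and C8b and C8g lie below 0.

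Of the 8 tested genes of classical and lectin activation, 4 were highest in KO replicate 8, as were 22.7% of all genes tested. C1qa and C4a were not among those 4. C1s, a protease of the C1 complex, had 107 CPM in KO replicate 8 and 1.83, 4.68 and 4.31 CPM in the other KO libraries, against 3.09, 13.7, 3.09 and 1.32 CPM in Het (log2 fold change 2.46, SE 1.23, edgeR adjusted p = 0.455; −0.57, SE 0.73, without KO replicate 8). C1ra, its partner protease, did not pass the filter on low counts, as most of its counts lay in 1 library. It had 225 counts in KO replicate 8 and 4 to 8 counts in the other KO libraries, against 0 to 11 counts in Het. Since 34.5% of the windows of C1ra occur in C1rb, how counting divided such reads bears on the C1ra counts. The recognition subunit genes C1qb and C1qc were high in KO replicates 8 and 9. C1qc had 30.0, 20.7, 2.64 and 6.92 CPM in KO, against 2.24, 2.72, 2.38 and 2.33 CPM in Het (log2 fold change 2.63, SE 0.66, edgeR adjusted p = 0.110), and C1qb had 43.1, 25.1, 4.30 and 7.82 CPM in KO, against 3.78, 3.71, 0.795 and 2.43 CPM in Het (2.89, SE 0.74, adjusted p = 0.119). With KO replicates 8 and 9 left out these values were 0.97 (SE 0.63) for C1qc and 1.16 (SE 0.67) for C1qb. C1qa, another subunit of the same protein, had 8.82, 9.09, 3.47 and 7.64 CPM in KO, against 16.4, 8.22, 6.98 and 14.0 CPM in Het (log2 fold change −0.65, SE 0.41, edgeR adjusted p = 0.561). What counted the reads is not known here, and its part in the C1qa values was not tested.

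Of the 5 listed complement receptor genes, 2 were tested, C3ar1 and Cr2. Both were highest in KO replicate 8, as were 22.7% of all genes tested. C3ar1, the receptor for the C3a fragment, had 56.8, 38.2, 4.75 and 9.25 CPM in KO, against 3.86, 3.77, 5.03 and 3.35 CPM in Het (log2 fold change 2.76, SE 0.68, edgeR adjusted p = 0.107). C5ar1, the receptor for C5a, had 204, 236, 0 and 5 counts in KO, against 0, 15, 6 and 3 counts in Het, and was not tested. With both libraries left out, C3ar1 stood at 0.80 (SE 0.50). These 2 libraries are those with the highest macrophage and leukocyte marker sums, 505 and 285 CPM, and the part of that in the values above was not tested.

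Among the other regulators, Susd4, a membrane inhibitor of the complement cascade, had 11.1, 9.01, 10.1 and 10.8 CPM in KO, against 1.24, 5.996, 5.03 and 4.26 CPM in Het. The groups did not overlap, and the difference did not pass the test (log2 fold change 1.31, SE 0.46, edgeR adjusted p = 0.275). Cpn1, a subunit of carboxypeptidase N, which inactivates C3a and C5a, ran the other way, at 21.3, 33.5, 34.6 and 40.5 CPM in KO and 49.5, 48.7, 42.6 and 50.8 CPM in Het (log2 fold change −0.56, SE 0.21, edgeR adjusted p = 0.302). Clu, the most abundant of the listed complement genes per kilobase, had 262 ± 57.0 CPM in KO and 218 ± 59.8 CPM in Het, and Cr1l, the rodent membrane regulator Crry, had 71.7 ± 6.98 CPM in KO and 66.8 ± 14.0 CPM in Het (SD, n = 4 each), with edgeR adjusted p of 0.651 and 0.862. Cfp, which encodes properdin, a stabiliser of the alternative pathway, averaged 9.19 ± 2.70 CPM in KO and 8.77 ± 1.92 CPM in Het (SD, n = 4 each; edgeR adjusted p = 0.961). Mbl2, a lectin that starts the lectin pathway, had no count in any KO library, against 11, 5, 14 and 10 counts in the Het libraries, which is at least 3.57-fold lower in KO when each KO library is set to 3 counts.

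**Figure D4:**
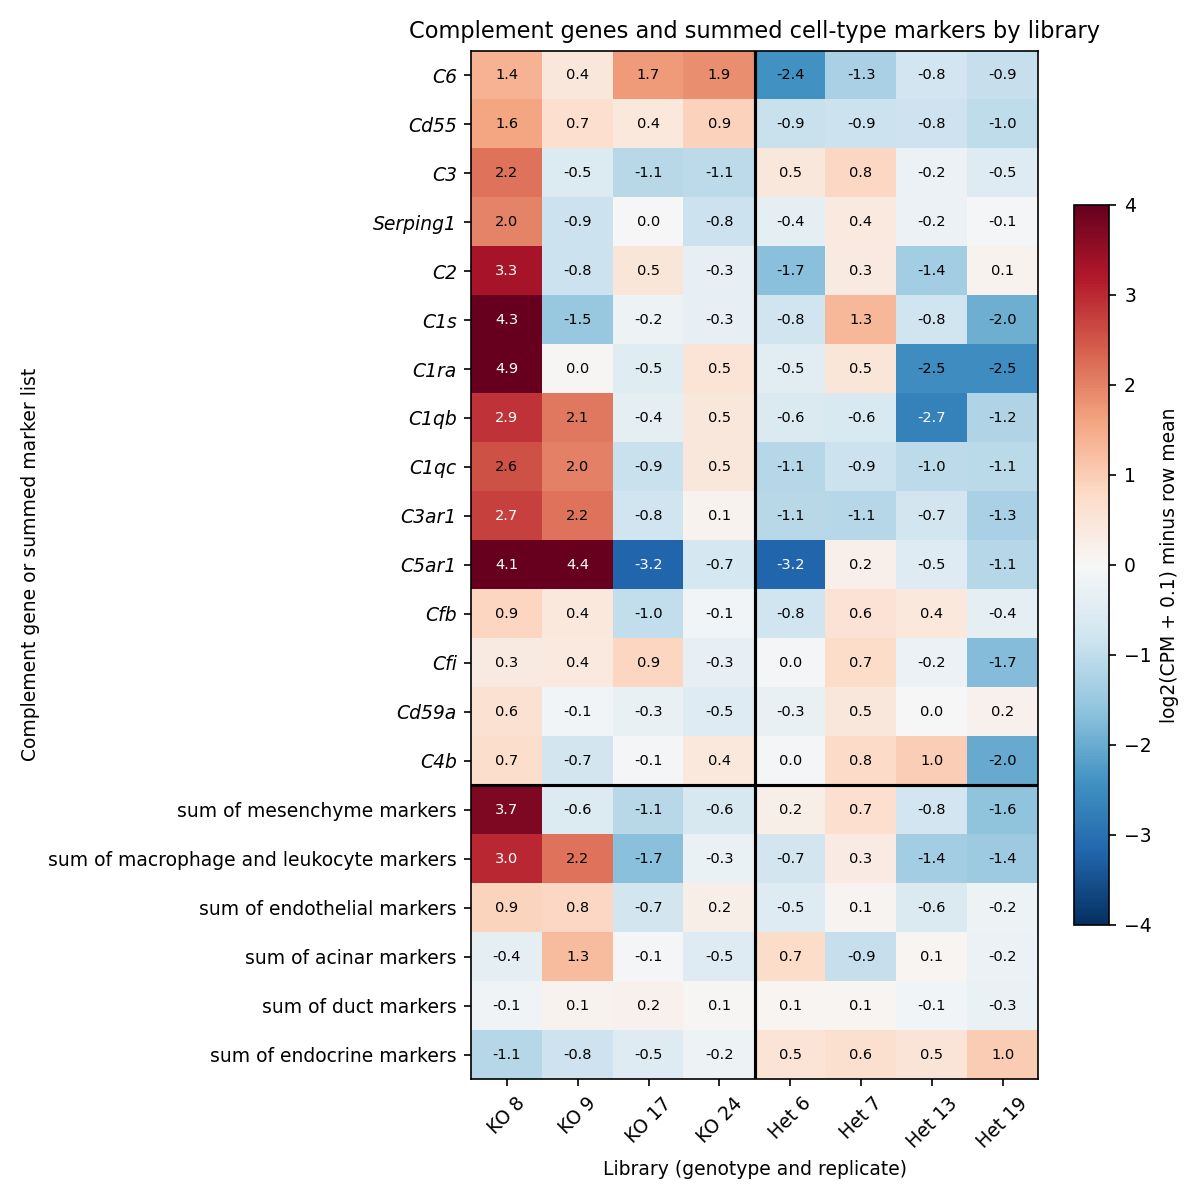
Complement genes (upper block) and summed marker lists (lower block) in each library, KO left and Het right, as log2(CPM + 0.1) minus the mean of the row, with the colour scale limited to 4 on either side. The upper block holds the 9 genes and a selection of further complement genes, each high in KO replicate 8. Others, such as C1qa (log2 fold change −0.65), C8b (−0.70) and Cpn1 (−0.56), are not shown. C6 and Cd55 are positive in all 4 KO libraries and negative in all 4 Het libraries, C3, Serping1, C2, C1s and C1ra peak in KO replicate 8, and C1qb, C1qc, C3ar1 and C5ar1 peak in KO replicates 8 and 9.

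Lists of other cell types were read beside these genes. All 11 mesenchyme markers were highest in KO replicate 8, against 22.7% of all genes tested. In that library the most abundant of them, the collagen gene Col3a1, had 3276 CPM, against 97.6 to 159 CPM in the other KO libraries and 82.2 to 393 CPM in Het. None of the mesenchyme markers was called by edgeR, nor any of the 10 macrophage and leukocyte markers, against 1.02% of all genes tested. Pdgfrb had the smallest p of the mesenchyme markers (log2 fold change 2.05, SE 0.71, edgeR adjusted p = 0.267). Aif1 had the smallest p of the macrophage and leukocyte markers (2.59, SE 0.67, edgeR adjusted p = 0.128). Its groups did not overlap, with KO above, as in 3.55% of all genes tested. Lyz2, the most abundant of that list, had 253, 56.1, 1.43 and 7.73 CPM in KO, against 1.08, 31.2, 1.68 and 2.33 CPM in Het. All 11 mesenchyme markers (median log2 fold change 2.04) and all 10 macrophage and leukocyte markers (2.50) were positive, against 53.4% of all genes. With KO replicates 8 and 9 left out, 1 of the 11 and 3 of the 10 were positive, against 47.9% of all genes. The part of these cells in C3, C2, Serping1 and the C1 genes was not tested. The part of these cells in C6 and Cd55 was not tested either. With KO replicates 8 and 9 left out, the log2 fold change was 3.04 (SE 0.42) for C6 and 1.60 (SE 0.25) for Cd55. The hepatocyte list, liver being the main source of soluble complement, was low, with 7 genes summing to 3.13 to 19.6 CPM in KO and 8.11 to 26.3 CPM in Het. The albumin gene Alb had 2.19 to 6.78 CPM in KO and 1.68 to 3.14 CPM in Het, and Apoa1 had no count in any KO library. Of this list 4 genes were tested and none was called, against 1.02% of all genes tested. Fgb had the smallest p (log2 fold change −2.05, SE 0.65, edgeR adjusted p = 0.220). Its groups did not overlap (0.510 to 2.87 CPM in KO, 3.78 to 6.89 CPM in Het), with KO below, as in 4.48% of all genes. Apob, the most abundant, had −0.61 (edgeR adjusted p = 0.824). Of the acinar list 9 genes were tested and none was called (Cela1 0.44, edgeR adjusted p = 0.691, and Ctrb1 0.25, edgeR adjusted p = 0.872). Acinar sums were 12996 to 44623 CPM in KO and 9867 to 30904 CPM in Het.

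Of 8 duct markers 1 was called higher in KO, the chloride channel gene Cftr (log2 fold change 2.23, SE 0.43, edgeR adjusted p = 0.0426). The log2 fold change was positive in 5 of the 8, against 53.4% of all genes tested. Spp1, the most abundant over all 8 libraries though below Sox9 in KO, had −0.17 (edgeR adjusted p = 0.833). The duct sums were 623 to 769 CPM in KO and 566 to 721 CPM in Het. Of 6 endothelial markers tested, Cldn5 was called higher (3.88, SE 0.68, edgeR adjusted p = 0.0311), at 2.62 to 3.75 CPM in KO and 0.0772 to 0.371 CPM in Het. Pecam1 had 0.94 (edgeR adjusted p = 0.661), and the log2 fold change was positive in 5 of the 6. Of 10 endocrine markers Ins1, Ins2 and Gcg were called lower (edgeR adjusted p = 0.00795, 0.0195 and 0.0440) and none was called higher. Of all genes tested, 0.68% were called lower and 0.34% higher. The log2 fold change was below 0 in all 10 endocrine markers, with a median of −0.53. Groups did not overlap, with KO below, in 4 of the 10 and in 4.48% of all genes tested. Ins1 was called under all 15 alternatives run, Ins2 under 9, Cftr under 8, Gcg under 6 and Cldn5 under 5. Of 17 genes that respond to interferon and inflammatory cytokines, which also regulate complement genes in many tissues, 11 were tested and none passed edgeR's test. An unadjusted p under 0.05 was found for 1 of the 11, against 12.2% of all genes. The smallest p was that of B2m, which had 218, 92.4, 22.5 and 35.2 CPM in KO, against 31.1, 30.4, 30.1 and 23.6 CPM in Het (log2 fold change 1.67, SE 0.58, edgeR adjusted p = 0.271). KO replicate 8 was the highest library for 8 of the 11 and for 22.7% of all genes tested. H2-K1, the most abundant, had −0.07 (adjusted p = 0.917).

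Likeness of pattern was measured as the root-mean-square difference of log2 CPM, each gene centred on its mean, over the 8 libraries and among 10105 genes with a mean log2 CPM of at least 3. The genes closest to C6 were Cftr (0.56), the adaptor gene Skap1 (0.61), the noncoding RNA gene Snhg11 (0.62) and the anion exchanger gene Slc26a1 (0.64). For Cd55 they were Tenc1 (0.31), which encodes a tensin, Rgs2 (0.31), a regulator of G-protein signalling, Pid1 (0.32) and Wdr78 (0.32). C6 and Cd55 differed from each other by 0.79. Both were higher in every KO library than in any Het library, so this measure mostly picks genes that share that step. The close genes named had log2 fold changes from 1.38 (Tenc1) to 2.23 (Cftr). Of these, Slc26a1 had overlapping groups, with 14.3 CPM in KO replicate 9 and 16.9 CPM in Het replicate 19. Neither Slc26a1 nor Pid1 was called (edgeR adjusted p = 0.165 and 0.104). Shared regulation was not tested. Cftr had 14.5, 16.4, 27.4 and 34.0 CPM in KO, against 2.55, 8.53, 4.33 and 4.16 CPM in Het, and Rgs2 had 192, 113, 139 and 151 CPM in KO, against 59.3, 61.1, 36.7 and 34.2 CPM in Het. Among pairs of the 9 genes the closest were Cd59a and Cfb (0.46) and then C3 and Serping1 (0.55). C6 and C3 were the farthest apart (1.96).

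The nearest named protein-coding neighbours of the 9 genes were taken from the RefSeq annotation of GRCm38.p6. Apart from members there were 16, of which 11 were tested and none was called by edgeR, against 1.02% of all genes tested. Plcxd3, next to C6, differed by −0.32 on the log2 scale (SE 0.30, adjusted p = 0.711), and the gene on its other side, Heatr7b2, had no counts. Both neighbours of Cd55, Daf2 and Zp3r, were too low to test. The remaining tested neighbours had log2 fold changes from −0.69 (Cd59b) to 1.57 (Tnxb, next to C4b, with 55.2 CPM in KO replicate 8, 0.319 to 3.59 CPM in the other KO libraries and 1.85 to 12.0 CPM in Het), with Hipk3 (−0.03), Trip10 (0.68), Zbtb12 (0.96), Rdbp (−0.31), Gar1 (−0.45), Pla2g12a (−0.39), Ypel4 (0.88) and Ube2l6 (0.71) between them. Their edgeR adjusted p ran from 0.410 to 0.963. Among the tested neighbours, groups did not overlap only for Pla2g12a, next to Cfi. It had 15.1 to 37.6 CPM in KO and 39.0 to 41.2 CPM in Het. Over all genes tested, KO lay below Het without overlap in 4.48%.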

How the data were processed

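RNA was sequenced from 8 libraries (4 KO, 4 Het) of sorted cells, from amplified cDNA as single-end reads, per the labels' protocols. The authors deposited raw counts per gene symbol, a file for each library. The build was mm9, and DESeq, Cufflinks 2.0.2, TopHat2 2.1.0 and bcl2fastq 1.8.4 are named, per the submitters' processing notes. What counted the reads, with which annotation and strand setting, is not given in the sources used here, and amplified copies count as reads. The authors' own comparison table was not used.

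Genes were kept by filterByExpr (minimum count 10, minimum total 15), scaled by TMM and compared, KO over Het, by edgeR 4.0.16 (R 4.3.3) with its two-sided quasi-likelihood test, p-values adjusted by Benjamini-Hochberg over all 14116 genes tested and called under 0.05. Log2 CPM used a prior count of 2. Alternatives were median-ratio scaling, total counts, no filter, 2 CPM in 4 libraries, DESeq2 1.42.0, limma-voom (limma 3.58.1) and each library left out. Leaving out KO replicates 8 and 9 together was chosen after seeing the data. In counts simulated for this comparison over 13908 genes, the test recovered 23.4%, 69.2% and 81.7% of genes changed by 1, 2 and 3 log2 units. Of 126 calls, 8 were false. Changes were placed only in genes above a mean of 2 CPM, and no simulated library stood apart as KO replicate 8 does. These rates therefore do not cover genes as low as C4b or values set by 1 library. No 2 libraries agreed within sampling noise (lowest chi-square per degree of freedom 19.1).

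The members and lists were chosen with earlier results of these data known. The named genes were Neurod1, the 9 members, called complement genes or the 1 with the smallest p of each role, close relatives, nearest neighbours, the 4 genes closest in pattern to C6 and to Cd55, and from each marker list up to 3 called genes, or the 1 with the smallest p, and the most abundant. Other genes were named after their values were seen. Motifs and shared windows come from RefSeq promoters and GENCODE transcripts of GRCm38, used without coordinates of the files. A further complement gene is not reported here.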

Additional observations from a re-analysis of the deposited data

Results flagged for a closer look

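Groups of 4 libraries were searched for a highest or lowest library far from the other 3. For independent, normally distributed values, chance alone gives such a library in about 1 of 20 groups. Of 102 such groups, from 51 named genes, 13 held a library of this kind. This count cannot be set against that rate, since linear CPM were searched and the genes were named partly for their values and share the same libraries. KO replicate 8 was far above the other KO libraries for C3 (49.2 CPM, others 4.90 to 7.34), C2 (29.7 CPM, others 1.60 to 4.15), Serping1 (137 CPM, others 19.1 to 34.5), Tnxb (55.2 CPM, others 0.319 to 3.59), Pdgfrb (73.8 CPM, others 6.29 to 15.6) and Col3a1 (3276 CPM, others 97.6 to 159), and far below them for Pla2g12a (15.1 CPM, others 34.9 to 37.6). KO replicate 9 was far above the others for Ctrb1 (38895 CPM, others 11079 to 15352). Among the Het libraries, replicate 19 was far above the others for Neurod1 (210 CPM, others 133 to 141) and Ins1 (24136 CPM, others 8350 to 10726) and below them for B2m (23.6 CPM, others 30.1 to 31.1). Het replicate 7 was far above the others for Lyz2 (31.2 CPM, others 1.08 to 2.33), and Het replicate 6 was below them for H2-K1 (235 CPM, others 282 to 291). Neither C6 nor Cd55 had such a library in either group.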

How the results depend on the processing

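C6 and Cd55 kept their direction under all 15 alternatives, C6 between 2.45 and 3.04 and Cd55 between 1.58 and 1.99 on the log2 scale, and they were called together under 10 of them. With 1 library left out, 0 to 2 of the 9 complement genes were called, 0 to 1 of the other complement genes (C1qc without KO replicate 17), and 29 to 285 of all genes, the most without KO replicate 8. DESeq2 called 585 of all genes and 4 of the other complement genes. Leaving out both KO replicates 8 and 9 turned the log2 fold changes of C3 (−1.33), Cfb (−0.55), Serping1 (−0.33), Cfp (−0.29), C4a (0.091), C1s (−0.25), Fcna (−1.02), Cr1l (−0.028), Tnxb (−0.91), Ube2l6 (−0.98), B2m (−0.0031), H2-K1 (0.19), Col3a1 (−0.83), Lyz2 (−1.02), Pecam1 (−0.23) and Ctrb1 (−0.31). limma-voom turned C3 (−0.29), C4b (0.072) and Tnxb (−0.19), and total counts turned Hipk3 (0.031); the cause was not tested. With 1 library left out, values crossed 0 for Cd59a (−0.42 to 0.012), C3 (−1.13 to 0.68), C4b (−0.49 to 0.21), Cfb (−0.19 to 0.37), Serping1 (−0.48 to 0.92), Cfp (−0.15 to 0.18), C4a (−0.43 to 0.30), Hipk3 (−0.13 to 0.035), Tnxb (−1.41 to 2.41), Ube2l6 (−0.54 to 1.08), H2-K1 (−0.19 to 0.041), Col3a1 (−0.73 to 2.43), Cela1 (−0.018 to 0.64) and Ctrb1 (−0.34 to 0.58). No paired analysis was possible because the groups share no replicate numbers. Counts of C4b, C7, C8a, Hc and Mbl2 were too few to show moderate differences.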
